A study of Mus musculus with 12 samples.

Results

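RNA from the heavy polysomes of CD4+ T cells was compared with total RNA (input) of the same kind of cells, in the arm labelled OA. The comparison takes 6 of the 12 libraries of the series, 3 OA heavy and 3 OA input, and it was read over the 7046 of 26485 gene rows that had 10 or more counts in at least 3 of these 6 libraries. OA heavy libraries hold RNA of the heavy polysome part of a sucrose gradient, and OA input libraries hold RNA that did not pass the gradient. The cells of both came from C57BL/6 mice, all immunised with what the labels call AOV alum, and were sorted as CD4+CD45+. Per the labels' protocols, one arm then received vehicle alone, and the other 4EGI-1, an inhibitor of the cap-binding factor eIF4E, in oral doses of 25 mg/kg daily over 7 days. OA and 4E are not spelled out, and OA was read as the vehicle arm and 4E as the inhibitor arm. No allele or transgene is named, and the labels do not say whether a library is 1 mouse or a pool. Age is not in the labels. Separate animals are not stated for the replicates, so every p-value here reflects the spread between these libraries alone, and that spread may be technical.

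Polysomes are mRNAs that carry several ribosomes at a time, and in a sucrose gradient such mRNAs sediment deep, in the heavy part. A transcript's level in heavy polysomes relative to input is therefore used as a reading of how well it is loaded with ribosomes. Small nucleolar RNAs (snoRNAs) guide chemical changes on ribosomal RNA, Cajal body RNAs do so on spliceosomal RNAs, and spliceosomal RNAs cut introns out in the nucleus. None of these is translated. The 7SL RNA is the RNA of the signal recognition particle, which binds ribosomes that make secreted proteins, and it is not translated either.

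Gene reads per library came to between 881639 and 1906657 in OA heavy and between 1052508 and 1895038 in OA input. Outside small noncoding RNA, OA heavy libraries held 1846780, 863979 and 775599 reads, against 1258673, 324535 and 305469 in OA input libraries, so levels of messenger RNAs were read at less depth in input. OA replicate 1 stood apart from the others in both fractions: its heavy and input libraries had a Spearman correlation of 0.971 with each other over the genes outside small noncoding RNA, while the other pairs of OA libraries had 0.824 to 0.941. Counts with and without that replicate are given below.

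The gene names in the table are in the human style, with 567 ZNF rows and 27 HLA rows but 0 rows that end in Rik, although the animals are mice. With letter case ignored, 92.2% of the tested rows share a symbol with a mouse gene of GENCODE vM21, the reference annotation used here. A shared symbol does not tell which species' gene models the reads were counted on. How mouse reads came to these names is not given in the sources, so each value is that of a row, and rows of near-identical copies may share reads. The T cell markers were present: PTPRC, the leukocyte antigen CD45, had 2646, 697 and 618 counts in OA heavy libraries, against 1869, 250 and 256 in OA input libraries. LCK, the kinase of the T cell receptor, had 1168, 539 and 431 counts in OA heavy libraries, against 730, 198 and 153 in OA input libraries. CD4 itself was thinly counted, with 44, 7 and 1 counts in OA heavy libraries and 25, 0 and 4 in OA input libraries, and the row of CD3D was at 0 in all 6. B2M had 223, 38 and 15 counts in OA heavy libraries and 116, 15 and 4 in OA input libraries. EEF1A1, an elongation factor, had 243, 102 and 50 in OA heavy libraries and 220, 18 and 33 in OA input libraries. Whether a thinly counted row reflects a low level of the mouse mRNA was not tested.

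Of 17 T cell markers, 14 were rows of the table and 12 were tested, and their summed level was 2155 to 2661 CPM in OA heavy and 2003 to 2660 CPM in OA input. CPM are counts divided by a library size scaled by TMM, a method that sets the bulk of genes level between libraries, times 1000000. Markers of other cells were lower in sum, and in 4 of the 5 lists the groups overlapped. B cell markers summed to 94.5 to 296 CPM in OA heavy and 99.6 to 248 CPM in OA input. The CD8 T and NK list summed to 10.9 to 17.5 CPM in OA heavy and 12.3 to 20.7 CPM in OA input, with CD8A, CD8B, NCR1, KLRD1 and KLRK1 at 0. Myeloid markers, with CD14, S100A8 and FCGR3A at 0, summed to 137 to 178 CPM in OA heavy and 116 to 126 CPM in OA input, the 1 list whose groups did not overlap. Erythroid and platelet markers ran from 128 to 948 CPM in OA heavy and from 165 to 785 CPM in OA input. Stromal and endothelial markers ran from 473 to 1194 CPM in OA heavy and from 486 to 1192 CPM in OA input. In that last list VIM alone had 384, 438 and 580 CPM in OA heavy libraries, against 387, 393 and 509 CPM in OA input libraries. COL1A1 differed between replicate numbers, with 28.6, 121 and 267 CPM in OA heavy libraries and 32, 115 and 333 CPM in OA input libraries. None of these markers passed the test, and in bulk RNA fewer cells of a type and less RNA per cell cannot be told apart.

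The first question was which RNAs differ between heavy polysomes and input when the drug is absent. Small noncoding RNAs were far lower in OA heavy than in OA input. Messenger RNAs hardly moved apart from each other after TMM scaling, which sets the bulk of genes level. Of the 7046 genes, 10 fell (0.142%) and 0 rose (0%) at an adjusted p under 0.05 in edgeR's quasi-likelihood test with Benjamini-Hochberg adjustment, and 105 had an unadjusted p under 0.05. DESeq2 called 43 lower (0.61%) and 0 higher. The 10 were SNORA81, SNORA53, SNORD94, SCARNA7, SNORA74B, SNORA45A, SNORA4, SNORA74A, SNORA21 and RNVU1-8, that is 9 small noncoding RNAs by the prefix of their name and a variant of the U1 spliceosomal RNA that the prefix rule does not take in. Of the 10, SNORA81, SNORA21 and RNVU1-8 had no OA heavy library at 10 counts and passed the filter through input alone. SNORA4 had 9, 10 and 2 counts in OA heavy libraries and SNORA74A had 11, 8 and 11, so both also needed input to pass. All of these rows were thus tested because of their level in input. With the replicate number as a block, 68 genes passed (0.965%): 64 fell (0.908%), with the 10 among them, and 4 rose (0.0568%). Of these 64, 47 were small noncoding RNAs and 17 were not. The block takes same-numbered libraries as pairs, which the labels do not state. Below, a call with or without the block is one of edgeR's fit to these 6 libraries unless another fit is named.

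Without replicate 1 in both fractions and without a block, 59 genes passed (0.837%), of which 58 fell (0.823%) and 1 rose (0.0142%), and all 10 kept their call. Leaving out OA input replicate 1 alone gave 46 lower and 1 higher. Leaving out OA heavy replicate 2 left 5 calls, without RNVU1-8, SNORA21, SNORA45A, SNORA74A and SNORA74B, and leaving out OA input replicate 3 left 6, without RNVU1-8, SNORA21, SNORA4 and SNORA74A. With library size alone as the scaling, 2 of the 10 were called. The highest adjusted p over the alternatives was 0.014 for SNORA81 and 0.0615 to 0.311 for the other 9. All genes together had a median log2 change of 0.00, with 50.1% of them below 0. Of the 6995 genes outside small noncoding RNA, 6849 (97.9%) lay within 1 log2 unit of 0. TMM scaling itself puts the median near 0, so a shift shared by all messenger RNAs cannot be seen here. With library size alone the median was 1.24.

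**Figure D1:**
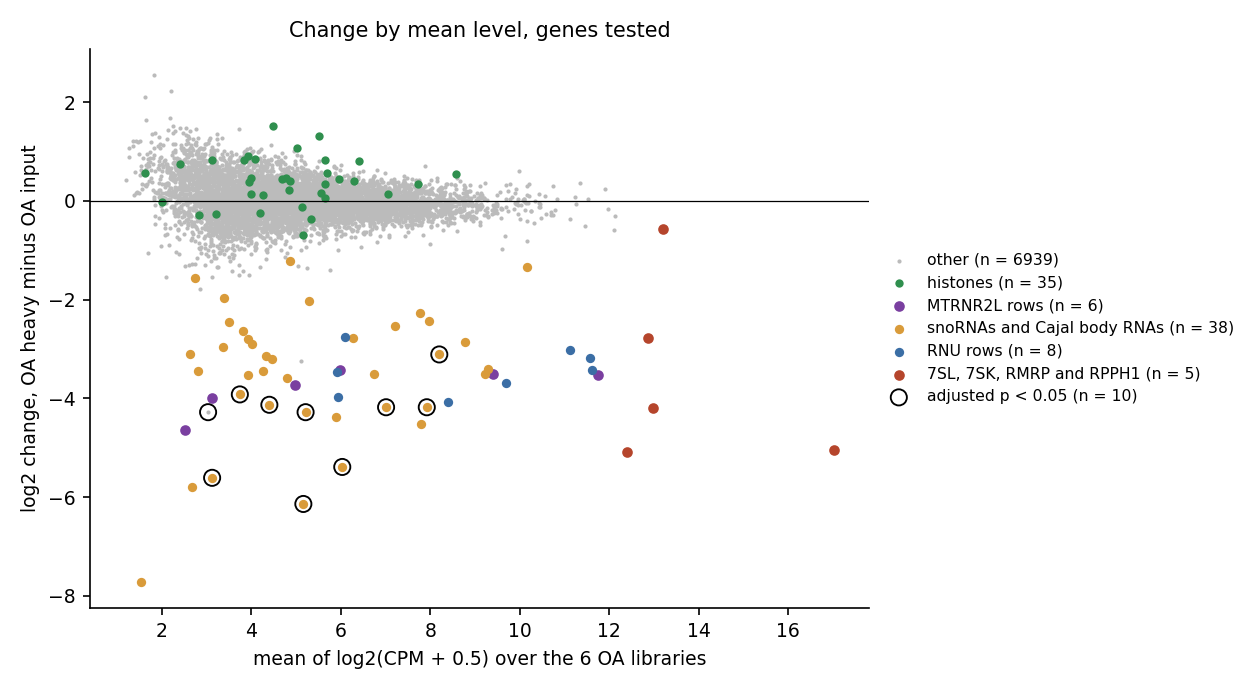
Log2 change between OA heavy and OA input (vertical axis) against the mean of log2(CPM + 0.5) over the 6 OA libraries (horizontal axis) for the tested rows with a symbol; points are rows, coloured by class, and rings mark the 10 rows with an adjusted p under 0.05. The small noncoding RNAs and the MTRNR2L rows lie below 0 at every level, and the grey cloud of other genes is centred on 0.00, where TMM scaling sets it.

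Small noncoding RNA, by the prefixes SNOR, SCARNA, RNU, RN7S, RMRP, RPPH1 and VTRNA, took 3.14%, 9.70% and 12.03% of gene reads in OA heavy libraries, against 33.6%, 74.9% and 70.98% in OA input libraries. Every heavy library was below every input library, and replicate 1 had the lowest share in each fraction. The mean was 8.29% ± 4.61 in OA heavy and 59.8% ± 22.8 in OA input (SD, n = 3 each), a difference of -51.5 percentage points with p = 0.1 in the exact two-sided permutation test, which is the smallest p that 3 against 3 libraries can give. These shares use all 491 rows of the class and no filter. Of the 491 rows, 168 had a count in an OA library and 51 were tested. Of the 51, 6 had no OA heavy library at 10 counts, so for those 6 the filter itself asked for a high level in input. Other rows, such as SNORA4, reached 10 counts in too few heavy libraries and also needed input to pass.

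**Figure D2:**
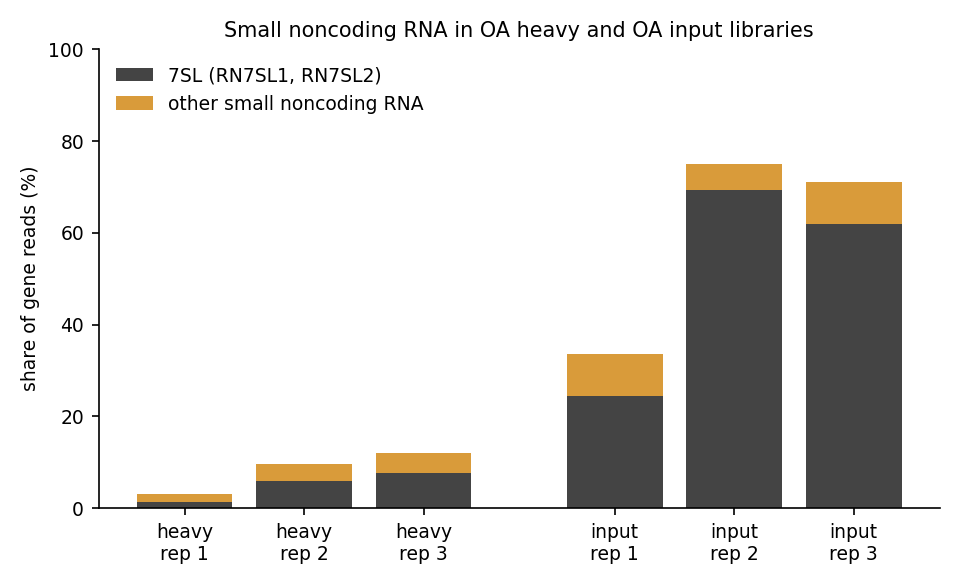
Share of gene reads, in percent, in 7SL (dark) and in the other small noncoding RNAs (light) for each of the 3 OA heavy and 3 OA input libraries; bars are single libraries. The heavy libraries reach at most 12.03% and the input libraries at least 33.6%.

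The 7SL RNA, counted as RN7SL1 and RN7SL2, made up most of that share. It took 1.43%, 6.03% and 7.74% of gene reads in OA heavy libraries, against 24.4%, 69.3% and 61.9% in OA input libraries, with means of 5.07% ± 3.26 in OA heavy and 51.8% ± 24.1 in OA input (SD, n = 3 each; exact permutation p = 0.1). Neither group reached the other. Without 7SL the class still took 3.22% ± 1.35 in OA heavy and 7.98% ± 2.08 in OA input (SD, n = 3 each; exact permutation p = 0.1). RN7SL1 and RN7SL2 had log2 changes of -5.05 ± 1.21 and -5.08 ± 0.90 (SE), with adjusted p of 0.339 and 0.0747 in edgeR's test, and both fell with the replicate block (adjusted p = 2.74e-11 and 3.28e-13). Those 2 rows are near-identical copies that may share reads. A share that large also moves every other share of a library, and the changes of single genes below are after TMM scaling.

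Mouse RNAs of the same names as 3 of these rows are shown, since their form is what marks the class: SNORA81, the row of smallest p, SNORA21, which lies in a ribosomal protein gene, and SCARNA8, which had no read in heavy. H/ACA RNAs, which guide pseudouridylation, end in the trinucleotide ACA followed by 3 bases. Sequences are from GENCODE vM21 (GRCm38), 5′ to 3′ on the strand of the gene, and capitals mark an ACA found 3 bases before the end. They were not read from these libraries, whose notes name the older build mm9.
Snora81 (chr16:23110756-23110933, plus strand, 178 bases): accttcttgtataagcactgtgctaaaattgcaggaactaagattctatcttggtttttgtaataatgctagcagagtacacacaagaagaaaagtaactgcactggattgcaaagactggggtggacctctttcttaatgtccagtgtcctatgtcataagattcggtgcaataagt
Snora21 (chr11:97781639-97781775, minus strand, 137 bases): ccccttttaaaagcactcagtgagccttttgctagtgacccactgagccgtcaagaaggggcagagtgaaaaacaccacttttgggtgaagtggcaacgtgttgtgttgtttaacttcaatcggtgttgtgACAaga
Scarna8 (chr4:86586453-86586583, minus strand, 131 bases): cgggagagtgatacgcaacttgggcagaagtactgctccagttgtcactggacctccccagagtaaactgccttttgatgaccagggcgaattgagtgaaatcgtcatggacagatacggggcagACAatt
The ACA stood at that place in 35 of the 42 Snora transcripts of the annotation (83.3%) and in 0 of its 98 Snord transcripts (0%). Snora81 as annotated does not have it there, which says only that these letters are not at that place.

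Among H/ACA snoRNAs, SNORA81 had 2.11, 5.13 and 5.91 CPM in OA heavy libraries, against 198, 319 and 347 CPM in OA input libraries. The groups did not overlap, and replicate 1 was the lowest in each. No heavy library reached 10 counts (7, 8 and 8), so the row was tested through input alone. Its log2 change was -6.14 ± 0.43 (SE), with heavy the lower in 3 of 3 replicates and an adjusted p of 0.000332 in edgeR's test. SNORA53 had 36.7, 67.3 and 70.2 CPM in OA heavy libraries, against 1168, 945 and 1015 CPM in OA input libraries, with no overlap. It fell by 4.18 on the log2 scale (SE 0.32, adjusted p = 0.000332).

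SNORA74B had 5.72, 9.61 and 19.2 CPM in OA heavy libraries, against 168, 656 and 566 CPM in OA input libraries. Here too every heavy library was below every input library, and the log2 change was -5.39 ± 0.61 (SE, adjusted p = 0.00597 in edgeR's test). SNORA21 was almost absent from heavy polysomes, with 1.5, 0 and 2.22 CPM in OA heavy libraries, which is 5, 0 and 3 counts, against 33.8, 33.8 and 136 CPM in OA input libraries. Also tested through input alone, it fell by 5.61 on the log2 scale (SE 0.82, adjusted p = 0.0277). SNORA45A, SNORA4 and SNORA74A, the last of which has a near relative in SNORA74B, had changes of -4.28, -3.92 and -4.13 with adjusted p of 0.012, 0.0167 and 0.0277. Of the 108 SNORA rows, 64 had a count in an OA library and 23 were tested, 4 of these through input alone. The 23 had changes of -6.14 to -1.97 with a median of -3.45, beside 0.00 over all genes tested.

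C/D snoRNAs guide ribose methylation. SNORD94 had 19, 32 and 43.6 CPM in OA heavy libraries, against 477, 466 and 743 CPM in OA input libraries, without overlap. Its log2 change was -4.18 ± 0.37 (SE, adjusted p = 0.000894 in edgeR's test). SNORD3A, the U3 RNA that takes part in cutting the ribosomal precursor rather than in methylation, had 188, 1096 and 1764 CPM in OA heavy libraries, against 662, 1635 and 5375 CPM in OA input libraries. These groups overlapped, but heavy was below input within each of the 3 replicate numbers. The change of U3 was -1.33 ± 0.81 (SE) with an adjusted p of 0.9998, and it fell with the replicate block (-1.34, adjusted p = 5.29e-05). The 7 tested SNORD rows, of 279 rows and 65 with a count, ran from -4.18 to -1.33 with a median of -2.46.

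Of the 8 tested Cajal body RNAs, of 24 rows, 1 fell without the block and 7 with it. SCARNA7 had 71.9, 112 and 124 CPM in OA heavy libraries, against 1018, 637 and 986 CPM in OA input libraries. It did not overlap and fell by 3.11 on the log2 scale (SE 0.31, adjusted p = 0.00215 in edgeR's test). SCARNA8 had 0 counts in all 3 OA heavy libraries, against 17, 10 and 14 counts in OA input libraries. A count of 0 allows up to 3 counts per library, a mean of 1.68 CPM in OA heavy, so SCARNA8 at a mean of 18 CPM in OA input was at least 10.7-fold lower in OA heavy. The limit covers counting error only. It is 1 of the 2 SCARNA rows tested through input alone, with an adjusted p of 0.0675 (blocked 0.00155). The 8 rows ran from -7.73 to -1.21 with a median of -3.31.

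Rows with the RNU prefix, which are spliceosomal RNAs except RNU105B, an older name of a C/D snoRNA, were low in heavy polysomes too. Of the 8 tested, of 71, 0 fell in edgeR's fit without the block and 8 with it, while DESeq2 called 5 and edgeR's fit over 12 libraries 8. RNU4-2, a U4 RNA, had 262, 1577 and 1589 CPM in OA heavy libraries, against 7811, 9227 and 19533 CPM in OA input libraries. Its change was -3.42 ± 0.67 (SE) with an adjusted p of 0.134, and it fell with the replicate block (adjusted p = 5.00e-09). RNU11, of the minor spliceosome that cuts a rare class of introns, had 3.91, 24.4 and 33.3 CPM in OA heavy libraries, against 115, 194 and 627 CPM in OA input libraries. Neither RNA overlapped between fractions, and RNU11 had a change of -3.98 ± 0.79 (SE, adjusted p = 0.138, blocked 4.09e-11). RNU12, its partner in the minor spliceosome, did overlap, since OA input replicate 2 had 28.2 CPM and OA heavy replicate 3 had 42.1 CPM. The 8 rows had a median of -3.44, and RNU12 alone lost its blocked call without replicate 1 (adjusted p = 0.101).

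RNVU1-8 had 1.5, 0.641 and 2.96 CPM in OA heavy libraries, which is 5, 1 and 4 counts, against 24.7, 39.5 and 37.4 CPM in OA input libraries. Tested through input alone, it fell by 4.28 on the log2 scale (SE 0.57, adjusted p = 0.0167 in edgeR's test), and it was the 1 row among the 10 that the class of small noncoding RNA did not hold. RMRP and RPPH1 are the RNAs of the RNase MRP and RNase P enzymes, which trim ribosomal and transfer RNA precursors. RMRP had 561, 2562 and 4103 CPM in OA heavy libraries, against 13318, 61387 and 57584 CPM in OA input libraries. RPPH1 had 1451, 3111 and 4686 CPM in OA heavy libraries, against 14256, 20710 and 28127 CPM in OA input libraries. Both were separate between fractions, with changes of -4.19 ± 0.83 and -2.77 ± 0.50 (SE) and adjusted p of 0.138 and 0.0811, and both fell with the block (adjusted p = 1.46e-12 and 1.16e-10).

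The 7SK RNA, which holds the elongation factor P-TEFb in an inactive form in the nucleus, was the small noncoding RNA that differed least. RN7SK had 5007, 9253 and 9662 CPM in OA heavy libraries, against 11180, 13403 and 10920 CPM in OA input libraries. The groups did not overlap, but the gap was small beside that of the other classes. Its log2 change was -0.57 ± 0.37 (SE), with an adjusted p of 0.9998 in edgeR's test and 0.192 with the replicate block. The blocked value moved to 9.84e-05 without replicate 2 and 0.00215 without replicate 3, and to 0.917 without replicate 1. Of the 51 tested small noncoding RNAs, 47 fell with the block and 41 of those kept the call when each replicate number was left out in turn.

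**Figure D3:**
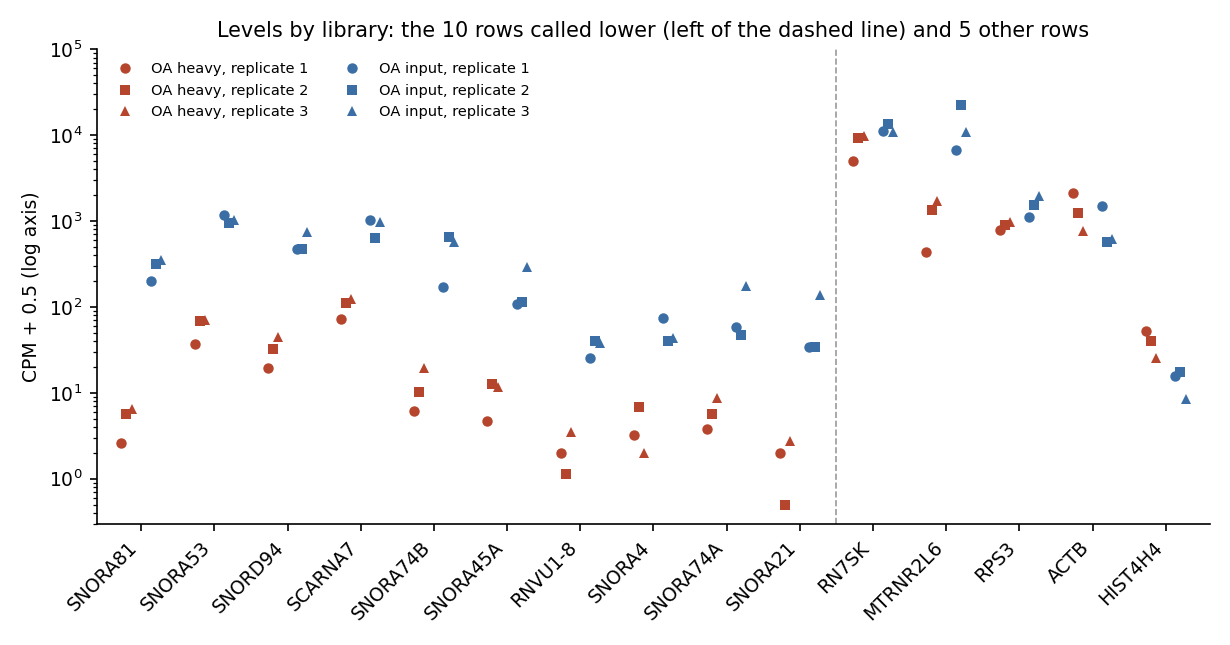
Level of 15 rows in each library as CPM + 0.5 on a log axis, OA heavy libraries left and OA input libraries right of each name, with the replicate number given by the symbol. The 10 rows left of the dashed line were called lower in OA heavy and show no overlap, whereas ACTB overlaps and HIST4H4 is higher in every heavy library.

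Most snoRNAs are cut from introns of other genes, so the change of a snoRNA can be set beside that of the gene that holds it. Of the 51 tested small noncoding RNAs, 23 shared a name with a mouse gene of GENCODE vM21, and 9 of those lay on the same strand inside 8 genes that were tested as well. The small RNAs had changes of -6.14 to -1.57 with a median of -3.51, and the 8 host genes had changes of -0.81 to 0.36 with a median of -0.18. EIF4A2, a translation initiation helicase that holds SNORA81, had 428, 302 and 301 CPM in OA heavy libraries, against 636, 252 and 321 CPM in OA input libraries. The groups overlapped, and the change of EIF4A2 was -0.24 ± 0.34 (SE, adjusted p = 0.9998 in edgeR's test), beside -6.14 for SNORA81. Leaving out OA input replicate 1 turned EIF4A2 to 0.27.

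RPL23, which holds SNORA21, changed by -0.13 ± 0.74 (SE), and by 0.07 with the replicate block. RCC1, the nuclear exchange factor that holds SNORA73A and SNORA73B, changed by 0.00 ± 0.41 (SE) beside -2.78 and -3.51 for those 2 RNAs. RPS3, which holds SNORD15B, was the 1 host gene that fell with the block, as given below. In 5 of the 9 pairs the small RNA overlaps an annotated exon of its host, so that reads of the one could have been counted for the other. These are SNORA81 in EIF4A2, SNORD15B in RPS3, SCARNA10 in NCAPD2, SNORA65 in RPL12 and SNORD21 in RPL5.

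**Figure D4:**
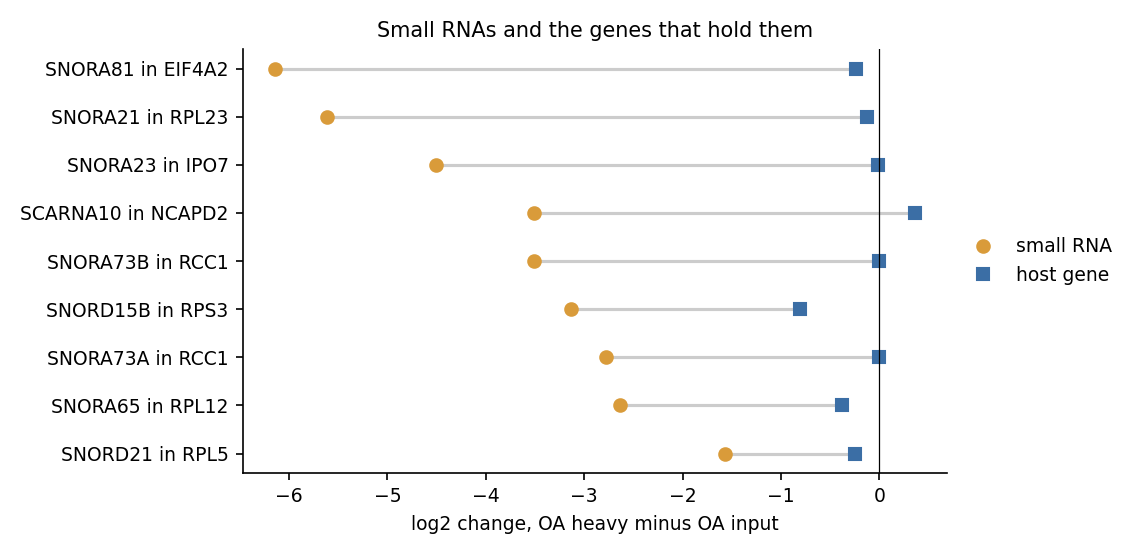
Log2 change between OA heavy and OA input for 9 small noncoding RNAs (circles) and for the gene that holds each (squares), from the fit without a block. The circles lie between -6.14 and -1.57 and the squares between -0.81 and 0.36; RCC1 appears for 2 small RNAs.

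Rows named MTRNR2L were lower in OA heavy as well. In the human genome these genes are nuclear copies of the mitochondrial large ribosomal RNA. GENCODE vM21 holds no mouse gene of the name MTRNR2L6, and which RNA these reads came from was not tested. The 10 rows took 0.0911%, 0.297% and 0.391% of reads outside small noncoding RNA in OA heavy libraries, against 1.35%, 4.61% and 2.37% in OA input libraries. MTRNR2L6 had 432, 1331 and 1724 CPM in OA heavy libraries, against 6712, 22160 and 10994 CPM in OA input libraries. Neither measure overlapped between fractions. The change of MTRNR2L6 was -3.52 ± 0.61 (SE), with an adjusted p of 0.0675 in edgeR's test and 1.08e-10 with the block. MTRNR2L7, MTRNR2L5, MTRNR2L10, MTRNR2L1 and MTRNR2L2 ran from -4.64 to -3.43. All 6 tested rows fell with the block and with each replicate number left out in turn, and in edgeR's fit of the 6 libraries 0 passed without it. DESeq2, with no block, called 4 of the 6, and edgeR's fit over 12 libraries called 6. MTRNR2L10 was tested through input alone, and the rows may share reads.

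Outside these classes, the RNAs that fell with the block included long noncoding and messenger RNAs. XIST, the nuclear RNA that silences an X chromosome, had 39.1, 85.2 and 163 CPM in OA heavy libraries, against 75.4, 184 and 258 CPM in OA input libraries. The groups overlapped, but heavy was lower within each replicate number by 0.95, 1.11 and 0.66 log2 units. XIST changed by -0.84 ± 0.53 (SE, adjusted p = 0.9998 in edgeR's test) and fell with the block (-0.90, adjusted p = 0.00245). MALAT1, a nuclear RNA of splicing speckles, had 2716, 3622 and 4584 CPM in OA heavy libraries, against 4434, 6052 and 5954 CPM in OA input libraries. Its groups overlapped as well, and its change of -0.59 ± 0.31 (SE) did not pass (adjusted p = 0.9998, blocked 0.0551). The 5 tested members of the list of snoRNA hosts and long noncoding RNAs were all below 0 with a median of -0.13, and without replicate 1 that median was 0.05. MALAT1, XIST, TUG1 and KCNQ1OT1 were among the 5. Of the list's 36 rows, 27 were at 0 in all 6 OA libraries, such as the snoRNA hosts GAS5, SNHG1 and ZFAS1. The median therefore does not describe snoRNA host genes.

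MAP9, a microtubule-associated protein, had 0, 21.8 and 41.4 CPM in OA heavy libraries, against 58.9, 312 and 199 CPM in OA input libraries. The groups did not overlap, and its change of -3.24 ± 1.04 (SE, adjusted p = 0.9998 in edgeR's test) passed with the block (-3.55, adjusted p = 9.75e-07). DNAJA1, a cochaperone of the HSP70 family, had 468, 559 and 693 CPM in OA heavy libraries, against 685, 1475 and 1238 CPM in OA input libraries. Replicate 1 of input lay within the range of heavy, and DNAJA1 changed by -0.98 ± 0.31 (SE, adjusted p = 0.9998, blocked 0.000656). HSPA1A, its inducible HSP70 partner, changed by -1.40 ± 0.71 (SE, adjusted p = 0.9998, blocked 0.299). In replicate 1 HSPA1A was higher in heavy by 0.57, whereas in replicates 2 and 3 it was lower by 1.70 and 1.73, and without replicate 1 it fell (-1.70, adjusted p = 0.00236). Of 31 tested heat shock and chaperone genes, 21 lay below 0 with a median of -0.17, beside 50.1% and 0.00 over all genes. DNAJA1 alone passed with the block, beside 0.908% of all genes that fell with it.

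CLSPN, a mediator of the replication checkpoint, SRGN, a proteoglycan of secretory granules, and CALM2, a calmodulin gene, also fell with the block (adjusted p = 0.00308, 0.0101 and 0.0106, against 0.9998 for each without it), with changes of -1.35, -1.32 and -0.70. Without a block, CLSPN fell once replicate 1 was left out of both fractions (adjusted p = 0.00724). Each of these 3 lost its blocked call when 1 replicate number was left out: CLSPN without replicate 3 (adjusted p = 0.0708), CALM2 without replicate 1 (0.213), and SRGN without replicate 1 or 3 (0.152 and 0.0823).

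Ribosomal protein mRNAs carry a 5′ terminal oligopyrimidine (TOP) tract, through which mTOR signalling sets how well they are loaded. RPS3, a protein of the small subunit, had 778, 894 and 965 CPM in OA heavy libraries, against 1123, 1541 and 1949 CPM in OA input libraries. The groups did not overlap. RPS3 changed by -0.81 ± 0.27 (SE, adjusted p = 0.9998 in edgeR's test) and fell with the block (-0.77, adjusted p = 0.00203). SNORD15B, at -3.14, overlaps an annotated exon of RPS3, so reads of that snoRNA may have been counted for RPS3. How far this moved the change of RPS3 was not tested.

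RPLP2, an acidic protein of the large subunit stalk, had 452, 723 and 762 CPM in OA heavy libraries, against 909, 1084 and 1143 CPM in OA input libraries. These did not overlap either, and RPLP2 changed by -0.70 ± 0.27 (SE, adjusted p = 0.9998, blocked 0.00315). Its partner RPLP1 had 86.4, 55.1 and 52.5 CPM in OA heavy libraries, against 159, 78.9 and 134 CPM in OA input libraries, with an overlap through heavy replicate 1. RPLP1 changed by -0.94 and RPS24 by -0.69 (adjusted p = 0.9998 for each, blocked 0.0106 and 0.0266). Without replicate 1 the blocked adjusted p was 0.00353 for RPS3, 0.315 for RPLP2, 0.152 for RPLP1 and 0.83 for RPS24, and without replicate 3 that of RPLP1 was 0.143.

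The rest of the tested ribosomal protein rows did not move as a block. Of 49 large and 33 small subunit rows, those without enough counts were not tested. RPL36A, RPS15A, RPS26, RPS28 and RPS29 were at 0 in all 6 OA libraries, so the medians describe the tested rows alone. Of 34 tested genes of the large subunit, 23 lay below 0 with a median of -0.17, beside 50.1% and 0.00 over all genes, 0 passed without the block and 2 fell with it. Of 21 tested genes of the small subunit, 13 lay below 0 with a median of -0.22, 0 passed without the block and 2 fell with it. By replicate number the medians of the large subunit were -0.17, 0.07 and -0.11, and without replicate 1 the fitted median was 0.09. Those of the small subunit were -0.39, 0.15 and -0.12, and the fitted median without replicate 1 was -0.11. Summed over all rows, large subunit genes took 1.06%, 0.703% and 0.626% of reads outside small noncoding RNA in OA heavy, against 1.28%, 0.724% and 0.737% in OA input, which overlapped. RPS20, whose -1.79 is the lowest of the list, rests on 1.92 to 7.52 CPM in OA heavy and 5.91 to 35.7 CPM in OA input (adjusted p = 0.9998, blocked 0.673).

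Of 20 other TOP mRNAs, 16 lay below 0 (80%, beside 50.1% of all genes) with a median of -0.18, and 0 passed with or without the block. TPT1, a growth-linked protein, had 1169, 1155 and 1061 CPM in OA heavy libraries, against 2161, 1024 and 1395 CPM in OA input libraries, which overlapped through input replicate 2. PABPC1, the poly(A) binding protein, and EEF1D, an elongation factor subunit, changed by -0.36 and -0.51, both within the overlap of their groups. The 34 translation initiation factors were split, 17 below and 17 above 0, with a median of 0.01. EIF4G1, the scaffold that binds eIF4E, had 510, 500 and 486 CPM in OA heavy libraries, against 514, 457 and 449 CPM in OA input libraries. Its change was 0.07 ± 0.21 (SE, adjusted p = 0.9998), whereas EIF5 and EIF3A stood at -0.42 and -0.43 without passing. Elongation and termination factors had a median of -0.02 over 16 genes, and aminoacyl-tRNA synthetases 0.01 over 21.

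Splicing factors whose genes are known to make nuclear or decaying transcripts through retained introns and poison exons stood lower more often than not. Of the 48 tested, 44 lay below 0 (91.7%, beside 50.1% of all genes), with a median of -0.21, but 0 passed with or without the block. HNRNPR had 151, 112 and 145 CPM in OA heavy libraries, against 183, 188 and 175 CPM in OA input libraries. Its groups did not overlap, and the change of -0.42 ± 0.23 (SE) had an adjusted p of 0.9998 (blocked 0.479). SRSF2, SRSF6 and HNRNPDL, an SR protein pair and an hnRNP, stood at -0.43, -0.41 and -0.35, none of which passed. Of the 48, 2 had heavy libraries all below input (3.21% of all genes tested). By replicate number the medians were -0.26, -0.32 and -0.04. Of 74 chromatin genes, 50 lay below 0 (67.6%, beside 50.1% of all genes), with a median of -0.08, and 5 had heavy libraries all below input; ATRX and ARID4B, at -0.49 and -0.45, were among the lowest p of that list and did not pass. Since the lists hold related genes of 1 set of libraries, these counts are descriptions.

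At the other end stood histone and actin genes. Replication-dependent histone mRNAs lack a poly(A) tail and are made in S phase. HIST4H4, a histone H4 gene, had 52.1, 39.1 and 25.1 CPM in OA heavy libraries, against 15.1, 16.9 and 7.88 CPM in OA input libraries. The groups did not overlap. It stood higher in heavy by 1.51 ± 0.42 (SE, adjusted p = 0.69 in edgeR's test) and rose with the block (1.59, adjusted p = 0.0114), a call that was lost without replicate 1 (0.478).

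HIST1H4F, another H4 gene, had 109, 89.1 and 53.2 CPM in OA heavy libraries, against 56.2, 24.4 and 11.8 CPM in OA input libraries. Its groups overlapped through replicate 1 of input, and it rose with the block (1.40, adjusted p = 0.00228, against 0.9998 without it), also with each replicate number left out. Without a block it rose as well once replicate 1 was left out of both fractions (adjusted p = 0.0091). HIST2H3D and HIST1H3I, histone H3 genes, stood at 1.08 and 0.83 and did not pass in either fit. Of 32 tested histone genes, 23 lay above 0 with a median of 0.37, beside 3515 of 7046 genes and 0.00 over all genes tested. Of the 32, 0 passed without the block and 2 rose with it (0.0568% of all genes), and 6 had heavy libraries all above input (3.89% of all genes tested). The medians by replicate number were 0.56, 0.37 and 0.06. Summed over the listed rows, histones had 3289, 3031 and 2515 CPM in OA heavy, against 2756, 2550 and 2391 CPM in OA input, which overlapped. Histone genes of a family are near-identical in their coding parts, so reads may have been split among them.

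ACTB, the cytoplasmic beta-actin, had 2109, 1233 and 767 CPM in OA heavy libraries, against 1502, 566 and 621 CPM in OA input libraries. The groups overlapped, but within each replicate number heavy was higher, by 0.49, 1.12 and 0.30. It stood at 0.61 ± 0.45 (SE, adjusted p = 0.9998 in edgeR's test) and rose with the block (0.63, adjusted p = 0.0472), which was lost without replicate 1 (0.0718) or 2 (0.111). ACTG2, a smooth muscle actin whose sequence is close to that of the other actins, rose with the block as well (0.74, adjusted p = 0.00741, against 0.9998 without it), and without replicate 1 its adjusted p was 0.0497. Of 35 tested genes of the actin cytoskeleton, 24 lay above 0 with a median of 0.17, beside 3515 of 7046 genes and 0.00 over all genes tested. ACTB alone passed, with the block, beside 0.0568% of all genes that rose with it.

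mRNAs of the T cell programme did not separate the fractions. The 14 tested genes of the T follicular helper (TFH) programme had a median of -0.02, with 6 above 0 and 0 called in either fit. TOX2, a factor of TFH cells, had 27.7, 29.5 and 28.1 CPM in OA heavy libraries, against 23.8, 11.3 and 23.7 CPM in OA input libraries. It was above input in every heavy library, at a change of 0.50 ± 0.38 (SE, adjusted p = 0.9998). CXCR5, the chemokine receptor that takes these cells into follicles, had 24.1, 16 and 12.6 CPM in OA heavy libraries, against 18.7, 11.3 and 7.88 CPM in OA input libraries, which overlapped. BATF, a factor upstream of the programme, stood at 0.28 and LEF1, a factor of naive and early TFH cells, at -0.17.

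Lineage factors and STATs had a median of -0.02 over 23 genes. ID3, an inhibitor of E proteins, had 38.5, 53.2 and 44.3 CPM in OA heavy libraries, against 29.7, 18.8 and 19.7 CPM in OA input libraries. No heavy library overlapped with input, and ID3 stood at 0.93 ± 0.33 (SE) without passing (adjusted p = 0.9998, blocked 0.377). STAT6, which carries the IL-4 signal, was also above input throughout, at 0.35, and RORA, a factor of Th17 cells, was below input throughout, at -0.35; neither passed. The 29 genes of T cell receptor signalling had a median of -0.03, and the 12 T cell markers one of 0.15.

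Metabolic genes lay slightly above 0 without passing. Glycolysis had a median of 0.22 over 19 genes, of which 14 were above 0, with HK1, a hexokinase, at 0.27. Nuclear genes of oxidative phosphorylation had 0.10 over 38, with ATP5A1, an ATP synthase subunit, at 0.43 and above input in every heavy library. Very long cytoskeletal and vesicle proteins had a median of 0.06 over 59 genes, and NBEAL2 and VPS13D stood at 0.44 and 0.41. Of those 59, 6 had heavy libraries all above input, against 3.89% of all genes tested. Genes regulated by upstream reading frames or frameshifting had a median of 0.01 over 19: DDIT3, a stress factor, stood at -0.60, OAZ1, whose synthesis needs a frameshift, at 0.35, and PSAT1, of serine synthesis, at 0.78, none of which passed.

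The remaining lists held 0 genes that passed in either edgeR fit, and 1 of theirs had an unadjusted p under 0.05 without the block, beside 0.142% called over all genes without the block and 0.965% with it. Of mRNAs classed in the literature as sensitive to eIF4E, the factor that 4EGI-1 targets, 12 of 21 lay above 0 with a median of 0.04. Genes of the mTOR pathway had a median of -0.02 over 30, and immediate early genes, the first to answer a stimulus, 0.02 over 35. Proteasome genes had 0.03 over 40, the secretory pathway 0.06 over 26, and RNA helicases, decay and export factors -0.05 over 46. Genes of DNA replication stood at 0.06 over 30 and those of mitosis at -0.15 over 24, 15 of them below 0. The MHC and interferon list had 0.14 over 20 and cholesterol synthesis 0.17 over 15, of which 11 lay above 0.

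**Figure D5:**
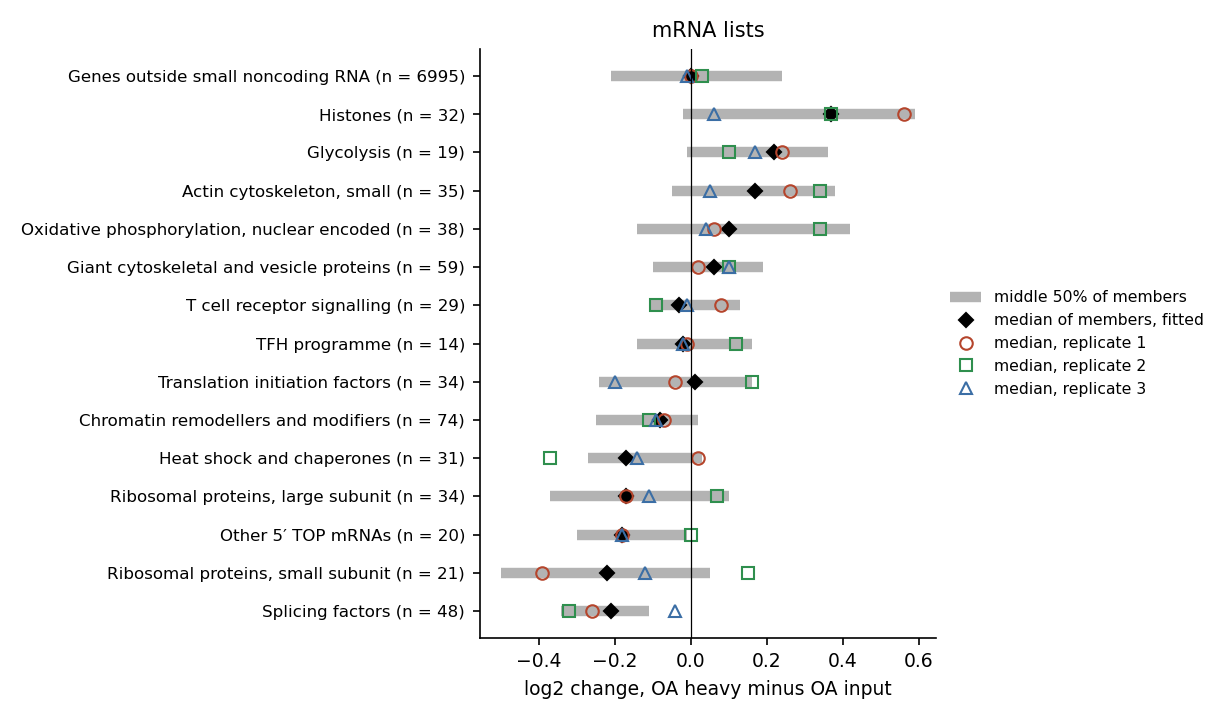
Median log2 change between OA heavy and OA input for 14 gene lists and for all genes outside small noncoding RNA; diamonds are medians of the fitted changes, grey bars the middle 50% of members, and open symbols the median within each replicate number. Medians run from -0.22 for proteins of the small ribosomal subunit to 0.37 for histones, and for several lists the replicate numbers fall on both sides of 0.

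Length of the coding region did not order the changes. Coding lengths from GENCODE vM21 were found for 6455 of the 6995 tested genes outside small noncoding RNA (92.3%). In 5 classes from short to long the median log2 changes were 0.03, 0.03, 0.00, -0.02 and 0.00, with the shortest class at 111 to 942 bases and the longest starting at 2895 bases. The middle 50% of genes ran from -0.23 to 0.31 in the shortest class and from -0.17 to 0.19 in the longest.

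The last comparison asked whether the difference between heavy and input in OA differs from that in 4E. In the fit over 12 libraries, 48 of 7046 genes were lower in heavy than in input in OA (0.681%), and 70 of 7465 genes in 4E (0.938%), each with its own filter on low counts. The difference of the 2 differences, OA minus 4E, was called for 0 of 7465 genes (0%) in edgeR's test over all 12 libraries, with 160 at an unadjusted p under 0.05, and for 0 in DESeq2. With arm and replicate number as a block, 10 genes passed (0.134%), 9 of them small noncoding RNAs that were less far below input in OA than in 4E. That block also pairs same-numbered 4E libraries, a pairing that was not checked. SNORA73A had 9.29, 34.5 and 53.0 CPM in OA heavy libraries and 58.1, 235 and 359 CPM in OA input libraries, against 8.02, 15.4 and 35.5 CPM in 4E heavy libraries and 349, 541 and 538 CPM in 4E input libraries. The heavy levels overlapped between arms, and of the input levels OA replicate 1 was the lowest of all 6. Its log2 change was -2.78 in OA and -4.65 in 4E, a difference of 1.88 without the block (adjusted p = 0.999) and 1.99 with it (adjusted p = 3.83e-06). For the 10 genes called in OA, the unblocked difference between arms ran from -1.75 to 1.10, with an adjusted p of 0.999 for each. Small noncoding RNA took 75.1%, 78.3% and 76.4% of gene reads in 4E input libraries, against 33.6%, 74.9% and 70.98% in OA input libraries. Without replicate 1 in both fractions the OA change of SNORA73A was again -2.78. The blocked difference between arms was not fitted without OA replicate 1.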

How the data were processed

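The authors deposited read counts, as whole numbers per gene symbol, in a table with a column for each of the 12 libraries and 0 columns of other samples. The table is called normalised, but its columns sum to different totals and were taken as raw counts. Bowtie and mm9 are named per the submitters' processing notes, without version or role; no source used here names the counter or the gene models. The authors' own comparison of the arms was not used. Lines for reads in no gene or in several (16.4% to 31.2% per OA library) stayed out of library sizes and tests. Of the 26485 rows, 28 hold calendar dates in place of symbols; they were tested but are not named.

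The tests on counts used edgeR 4.0.16 under R 4.3.3 (TMM, glmQLFit and glmQLFTest, Benjamini-Hochberg over all genes tested, threshold 0.05); DESeq2 1.42.0 was an alternative, and shares were compared by exact permutation tests in scipy 1.17.1. The fit across the 6 OA libraries had no block. Deviations of same-numbered heavy and input libraries from their group means correlated at 0.651, 0.124 and 0.279 over 6995 genes, though heavy 3 with input 2 (0.22) and heavy 2 with input 3 (0.149) were above the second of these. The 3 same-numbered pairs were over 0.1, so by a limit of 0.1 the numbers were taken to pair the samples, and blocked values are given where they change a call. The labels do not say what a number marks. OA heavy 2 had a Spearman correlation of 0.884 with OA input 2, against 0.904 with input 1 and 0.919 with input 3. The check sets replicate 1 apart but does not settle the pairing of numbers 2 and 3, which every blocked call assumes. It covered OA libraries alone, so the pairing of 4E libraries was not checked. The difference between arms was fitted over all 12 libraries and 7465 genes. Differences within a replicate number are of log2 CPM taken after 0.5 was added to each count. Tested on simulated data for OA heavy minus OA input (7046 genes, 50 changed per size), the fit without a block called 8%, 58% and 94% of genes lowered by 1, 2 and 3 log2 units with 5 false calls, and with the block 58%, 74% and 92% with 7 false calls. Each fit was given its own simulated counts, drawn from its own design, so the rates with and without the block are not from the same data. In the blocked simulation the pairing by number held by construction, so its rates cannot bear on whether the numbers pair the libraries. Simulated counts took the spread that edgeR fitted as a trend over level under that design, for genes picked at random. Rows of wider spread were not simulated. RN7SL1, at -5.05 ± 1.21 (SE), was not called without the block (adjusted p = 0.339 in edgeR's test).

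Genes were named by a rule: among genes called and separate between the groups, the 12 of smallest p in each direction outside small noncoding RNA and the 6 small noncoding RNAs of smallest p, and in each of 36 lists up to 4 genes of smallest p. SNORA4, SNORA74A, SNORA21, SCARNA8, SNORD3A, the RNU, 7SL, 7SK, RMRP and RPPH1 rows, MTRNR2L1, MTRNR2L2, EIF4G1, EIF4A2, RPL23, RCC1, ACTG2, MAP9, CLSPN, SRGN, CALM2 and the genes of the difference between arms were named after their values were seen. Members and lists were chosen with earlier results of these data known. Host genes, coding lengths and sequences came from GENCODE vM21 (GRCm38).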

Additional observations from a re-analysis of the deposited data

Results flagged for a closer look

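A test of whether heavy minus input differs between OA and 4E called 10 genes, with arm and replicate number as a block. The block takes same-numbered libraries as pairs in both arms, and that pairing was not checked in 4E. Of these, 9 had a higher log2 difference in OA than in 4E: SNORA51 by 3.42, SNORA73A by 1.99, RNU11 by 1.93, RNU5B-1 by 1.25, SNORD22 by 1.18, RNU5A-1 by 1.08, SNORA63 by 1.03, SNORD3A by 0.98 and SNORA73B by 0.88. MTRNR2L6 had a lower one, by -1.13. None of the 10 passed without the block (adjusted p = 0.999 for each in edgeR's test). In the same order, their unblocked OA changes were -2.89, -2.78, -3.98, -4.07, -2.85, -3.68, -3.41, -1.33, -3.51 and -3.52. Without replicate 1 in both fractions these changes were -3.08, -2.78, -3.82, -4.05, -2.78, -3.64, -3.33, -1.29, -3.51 and -3.44. The blocked difference between arms was not fitted without OA replicate 1.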

How the results depend on the processing

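The count of 10 genes lower in OA heavy moved to 48 in the fit over 12 libraries, 43 in DESeq2, 72 without a filter on low counts, 6 with a filter of 50 counts and 2 with library size alone (which shifts the median of all genes by 1.24). With small noncoding RNA left out it was 0. That setting takes 9 of the 10 rows out of the table, and the remaining row, RNVU1-8, was not called. The count was 58 without replicate 1 in both fractions and 5 to 46 with 1 library left out. With the replicate block it was 64, or 67 with scaling outside small noncoding RNA. The count of 0 higher became 3 without a filter, 4 with the block under either scaling, 1 without replicate 1 in both fractions, and 0 to 1 with 1 library left out. Alternatives added after seeing the data were the block over 12 libraries, with 72 lower and 6 higher, and the block without a replicate number, with 61 to 79 lower and 3 to 11 higher (61 and 3 without replicate 1, 79 and 4 without replicate 2, 71 and 11 without replicate 3). The difference between arms had 9 genes higher and 1 lower with the block and 4 higher without a filter, against 0. The share of small noncoding RNA differed by -41.9 points of all reads, by -4.76 points without 7SL, and by -64.6 to -44.0 points with 1 library left out. EIF4A2 ran from -0.48 to 0.27 with 1 library left out, and turned to 0.08 without replicate 1 in both fractions and to 0.09 with the block as well. Depth limits input most: genes outside small noncoding RNA had a median of 33.3 counts in OA input, against 65.3 in OA heavy.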
